A study of Mus musculus with 8 samples.

Results

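A set of 9 conventional dendritic cell identity genes was followed here. It holds the transcription factor genes Zbtb46, Batf3, Id2, Spi1 and Nfil3, the cytokine receptor gene Flt3, and the surface protein genes Xcr1, Sirpa and Cd24a. A place in this set does not make a gene particular to these cells. The members were given as a list of gene symbols. Each was read from the probe set that carried its symbol alone, and where a gene had several, from the one with the highest mean over all arrays. All 9 were found, among 22180 genes with such a probe set, and they held 10 probe sets in all because Cd24a had 2.

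The cells were CD11c+ dendritic cells grown with GM-CSF from the bone marrow of wild-type female C57BL/6 mice, cultured for 7 days at 21% oxygen. After purification on CD11c beads (over 98% pure per the labels) they were held for 2 days in GM-CSF (20 ng/ml) under hypoxia, at 2% oxygen or about 14 mmHg. Cells of the SCF group then received stem cell factor, which binds the receptor tyrosine kinase Kit, at 100 ng/ml for 6 hours, and cells of the medium group were left without it for the same time. Low oxygen, GM-CSF, strain and sex were therefore common to both groups, and the 4 experiments, named BC, D2, E and I, each gave 1 SCF and 1 medium array. The sources used here give neither the number nor the age of the mice.

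As background, Zbtb46 is a zinc finger factor that marks conventional dendritic cells and their committed progenitors among myeloid cells. Conventional dendritic cells fall into type 1, which carry Xcr1 and depend on Batf3, Id2 and Nfil3, and type 2, which carry Sirpa. GM-CSF cultures of bone marrow are known to hold cells that resemble dendritic cells beside cells that resemble macrophages, and Flt3 ligand rather than GM-CSF drives the type 1 lineage most strongly.

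The labelled cell type was set against its markers. Of 10 conventional dendritic cell markers, 8 had a probe set of their own. All 8 lay above the intensity filter of 4.05 on the log2 scale that was used in place of a detection call. This filter is the median of the means of named probe sets, so passing it says little by itself. Xcr1 lay near it, with a mean of 4.17. Zbtb46, Flt3, Xcr1 and Sirpa are members as well as markers, so their passing is no separate check of the cell type. Itgax, the gene of CD11c, averaged 10.02 ± 0.23 with SCF and 10.08 ± 0.12 in medium (log2 intensity, SD, n = 4 each). H2-Ab1, an MHC class II gene, averaged 11.03 with SCF and 10.99 in medium. Clec9a, a type 1 marker, was not analysed here. Of 11 macrophage markers, 10 were on the arrays and 9 passed the filter, and their summed linear intensity ran from 2032 to 2943 with SCF and from 2265 to 2939 in medium. Of 6 monocyte markers, 5 were on the arrays and 4 passed, with sums from 240.2 to 412.9 with SCF and from 317.7 to 461.0 in medium. In these bulk samples, fewer cells of a type and less RNA per cell cannot be told apart.

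Promoters are shown for the members whose levels differed most over the arrays, Zbtb46, Batf3 and Nfil3. The sequence around a start of each gene can thus be set beside its values. RefSeq (GRCm38.p6) gave a window of 250 bases before to 50 bases after the start for 6 of the 9 members. The windows were searched on both strands for GGAAGT (the core bound by PU.1), TGANTCA (AP-1), ACGTG (the hypoxia response core) and TTANNTAA (NFIL3), and the matches are in capitals.
Zbtb46: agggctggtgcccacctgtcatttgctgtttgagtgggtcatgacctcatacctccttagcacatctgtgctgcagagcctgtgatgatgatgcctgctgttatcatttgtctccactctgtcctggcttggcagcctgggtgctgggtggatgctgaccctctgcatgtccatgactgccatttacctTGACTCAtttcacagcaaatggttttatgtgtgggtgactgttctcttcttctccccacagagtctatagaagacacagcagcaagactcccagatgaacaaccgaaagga
Batf3: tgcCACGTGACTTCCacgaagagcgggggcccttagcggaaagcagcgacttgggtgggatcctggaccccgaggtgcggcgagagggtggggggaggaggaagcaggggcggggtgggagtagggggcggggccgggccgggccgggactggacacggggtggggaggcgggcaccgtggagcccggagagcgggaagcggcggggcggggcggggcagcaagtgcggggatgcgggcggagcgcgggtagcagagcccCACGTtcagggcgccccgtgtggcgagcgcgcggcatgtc
Nfil3: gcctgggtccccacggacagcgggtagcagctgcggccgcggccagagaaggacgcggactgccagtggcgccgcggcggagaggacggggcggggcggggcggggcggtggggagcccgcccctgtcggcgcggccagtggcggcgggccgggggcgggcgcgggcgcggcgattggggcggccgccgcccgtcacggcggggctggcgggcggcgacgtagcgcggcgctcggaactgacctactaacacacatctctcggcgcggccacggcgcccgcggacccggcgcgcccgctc
The Zbtb46 window (chr2:181424339-181424638, minus strand) lies inside the annotated gene (chr2:181371009-181493262) and holds 1 AP-1 match, which 7.81% of 32851 promoter windows hold. In Batf3 (chr1:191098164-191098463, plus strand) there were 3 hypoxia response matches, of which 2 are the opposite strands of 1 palindrome, and 1 PU.1 match that directly follows the palindrome. PU.1 matches were in 23.8% of all windows and hypoxia response matches in 19.6%. The Nfil3 window (chr13:52980990-52981289, minus strand) also lies inside its annotated gene (chr13:52967209-52982878). It held no match to the searched letters, and NFIL3 matches were in 6.00% of all windows. A match is a run of letters and not a measured site.

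The identity genes lay near their medium level after 6 hours of SCF. With each experiment entered as a block, limma called none of the 9 members at an adjusted p of 0.05, where 0% of the 12668 probe sets tested did. At an unadjusted p under 0.05 there were 0 members, against 4.21% of all probe sets. No member had SCF and medium values that did not overlap, a pattern seen in 0.971% of all probe sets. The fitted fold changes lay between 0.957 for Sirpa and 1.11 for Zbtb46, and the 95% intervals of all 9 lay between 0.881-fold and 1.25-fold. The median log2 fold change was 0.02 over the members and 0.00077 over all probe sets tested, and 7 of 9 members lay above 0 beside 50.5% of all. With the array medians equalized 6 did, beside 39.5% of all, after a repeated quantile normalization 5, beside 44.1%, and without 1 experiment between 5 (without BC or without E) and 8 (without D2), beside 49.2% to 51.5%. The exact sign-flip permutation test over 4 pairs cannot go below a two-sided p of 0.125.

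**Figure D1:**
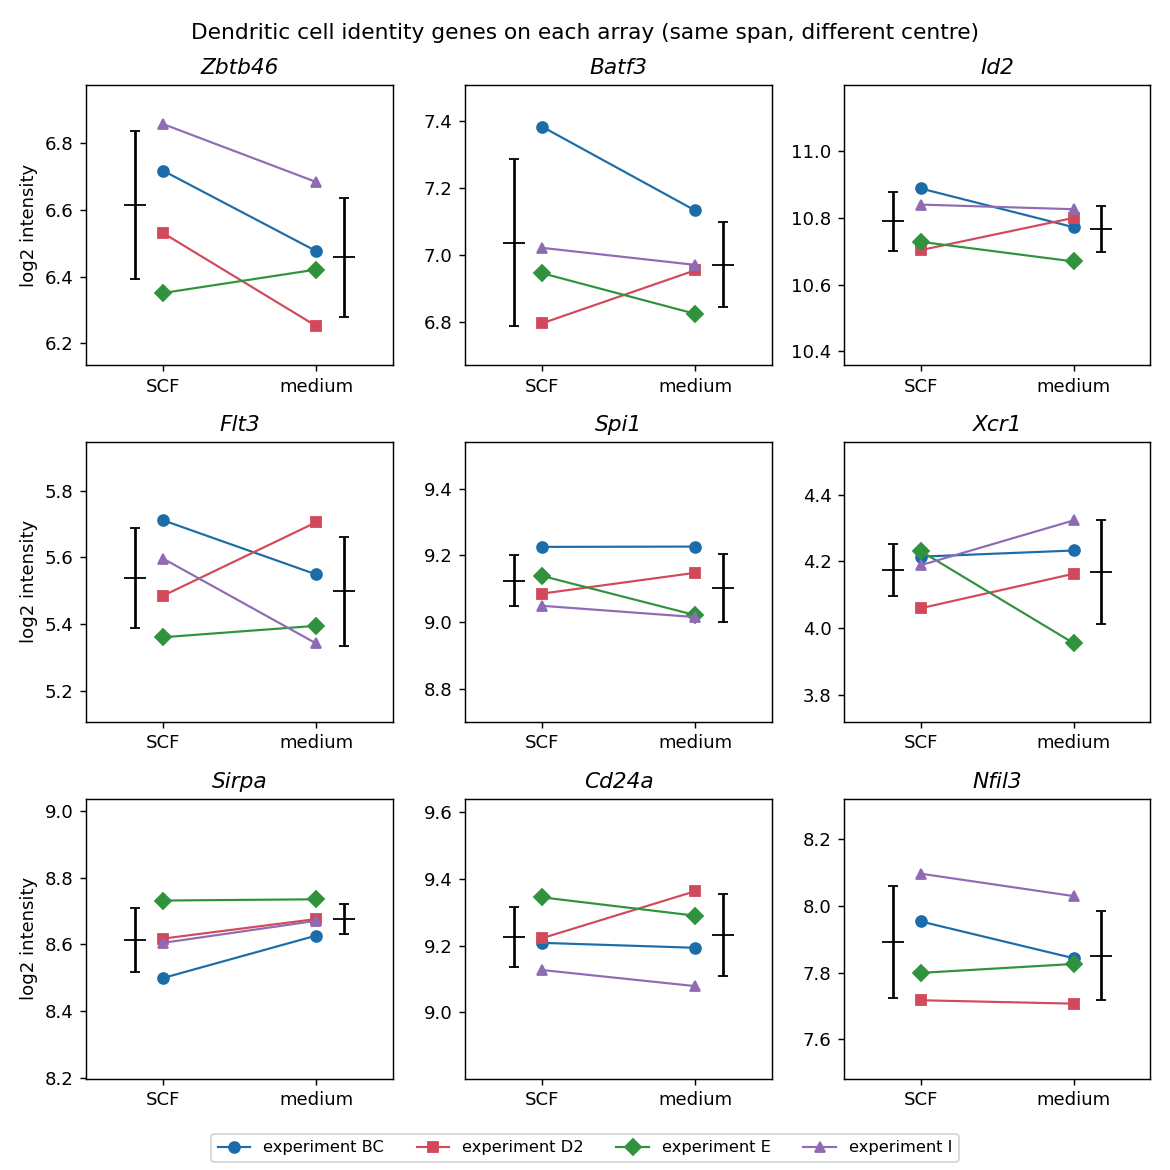
Log2 intensity (y axis) of each of the 9 genes on each array, SCF at left and medium at right, with a line joining the 2 arrays of an experiment; black bars are the mean and SD of the 4 arrays of a group. All panels span the same number of log2 units, and in every panel the 2 groups overlap.

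Zbtb46 had the largest fitted change among the members. Its log2 intensities with SCF were 6.72 (BC), 6.53 (D2), 6.35 (E) and 6.86 (I), against 6.48 (BC), 6.25 (D2), 6.42 (E) and 6.68 (I) in medium. It was higher with SCF in BC, D2 and I and lower in E. The means were 6.61 ± 0.22 with SCF and 6.46 ± 0.18 in medium (SD, n = 4 each), a log2 fold change of 0.16 (SE 0.07; limma, adjusted p = 0.945; 95% interval from −0.0063 to 0.32). Without experiment E the log2 fold change was 0.23, still with a limma adjusted p of 0.922.

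Spi1 encodes PU.1, the ETS family factor needed for myeloid and dendritic cell development. It measured 9.23 (BC), 9.09 (D2), 9.14 (E) and 9.05 (I) with SCF, against 9.23 (BC), 9.15 (D2), 9.02 (E) and 9.01 (I) in medium. The pairs nearly coincided, with the widest gap in E, and the ranges of the groups lay almost on top of each other. The log2 fold change was 0.02 (SE 0.05; limma, adjusted p = 0.981; 95% interval from −0.10 to 0.15), and it turned to −0.0098 without E.

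The 3 factors of the type 1 lineage differed little between the groups. Batf3, a basic leucine zipper factor required for type 1 cells, measured 7.38 (BC), 6.79 (D2), 6.95 (E) and 7.02 (I) with SCF, against 7.13 (BC), 6.95 (D2), 6.82 (E) and 6.97 (I) in medium. Both arrays of BC were the highest of their groups, and only D2 was lower with SCF. The log2 fold change of Batf3 was 0.07 (SE 0.07; limma, adjusted p = 0.957; 95% interval from −0.10 to 0.24). It shrank to 0.0047 without BC and was 0.14 without D2.

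Id2, a helix-loop-helix protein that holds E proteins in check, stood at 10.89 (BC), 10.70 (D2), 10.73 (E) and 10.84 (I) with SCF, against 10.77 (BC), 10.80 (D2), 10.67 (E) and 10.83 (I) in medium. All 8 arrays lay within 0.22 log2 units. Its log2 fold change was 0.02 (SE 0.06; limma, adjusted p = 0.981; 95% interval from −0.11 to 0.15), which turned to −0.0080 without BC and to −0.00054 after a repeated quantile normalization. Nfil3, a basic leucine zipper factor that acts early in type 1 specification, gave 7.95 (BC), 7.72 (D2), 7.80 (E) and 8.10 (I) with SCF, against 7.84 (BC), 7.71 (D2), 7.83 (E) and 8.03 (I) in medium. Experiment I was highest and D2 lowest in both groups, so the spread of Nfil3 ran between experiments and hardly between treatments. The log2 fold change was 0.04 (SE 0.05; limma, adjusted p = 0.960; 95% interval from −0.08 to 0.16). Without BC it was 0.02 and without E 0.06.

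Flt3, the receptor tyrosine kinase for Flt3 ligand and a relative of Kit, varied from pair to pair. With SCF it measured 5.71 (BC), 5.48 (D2), 5.36 (E) and 5.60 (I), against 5.55 (BC), 5.71 (D2), 5.39 (E) and 5.34 (I) in medium. It was higher with SCF in BC and I, lower in D2 and E, and its differences ran from −0.22 in D2 to 0.25 in I. The log2 fold change was 0.04 (SE 0.08; limma, adjusted p = 0.978; 95% interval from −0.15 to 0.23). Without I it turned to −0.03. Kit itself, the receptor of the added factor, averaged 6.71 ± 0.26 with SCF and 6.74 ± 0.24 in medium (log2 intensity, SD, n = 4 each).

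Xcr1, the chemokine receptor of type 1 cells, lay close to the intensity filter of 4.05. It measured 4.21 (BC), 4.06 (D2), 4.23 (E) and 4.19 (I) with SCF, against 4.23 (BC), 4.16 (D2), 3.95 (E) and 4.32 (I) in medium. Only the medium array of E was below the filter, and E was the single experiment with a higher value under SCF. The log2 fold change of 0.0049 (SE 0.08; limma, adjusted p = 0.999; 95% interval from −0.17 to 0.18) turned to −0.09 without E and to −0.02 after a repeated quantile normalization.

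Sirpa encodes the inhibitory receptor for CD47 and marks type 2 cells among conventional dendritic cells. It was the 1 member with the same sign in all 4 experiments, where 12.9% of all probe sets had this. Its log2 intensities with SCF were 8.50 (BC), 8.62 (D2), 8.73 (E) and 8.60 (I), against 8.63 (BC), 8.68 (D2), 8.74 (E) and 8.67 (I) in medium. SCF values were lower in each pair, with differences that ran from −0.13 in BC to −0.0038 in E, and the groups overlapped. The log2 fold change was −0.06 (SE 0.05; limma, adjusted p = 0.945; 95% interval from −0.18 to 0.05) and stayed below 0 under every alternative run, from −0.08 to −0.04. Several of these runs, which change only the filter, variance model or block, leave the value as it was.

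Cd24a encodes a small glycoprotein anchored by lipid to the cell surface, which is high on type 1 cells. It measured 9.21 (BC), 9.22 (D2), 9.34 (E) and 9.13 (I) with SCF, against 9.19 (BC), 9.36 (D2), 9.29 (E) and 9.08 (I) in medium. Experiment I was lowest in both groups, and SCF was lower in D2 alone. The fitted log2 fold change was −0.0057 (SE 0.06; limma, adjusted p = 0.998; 95% interval from −0.14 to 0.13). The second Cd24a probe set, not used for the gene, disagreed with the first in direction: its log2 fold change was 0.13 (SE 0.10), with −0.22 in BC and 0.40 in I, and the mean of both was 0.06.

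**Figure D2:**
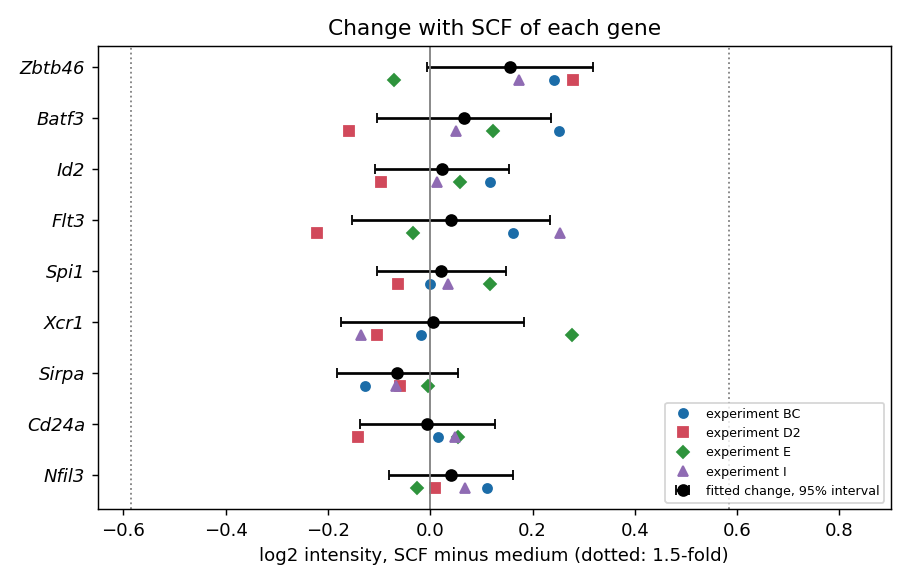
Log2 intensity of SCF minus medium (x axis) for each gene (y axis); black points are the fitted change with its 95% interval, coloured marks the difference in each of the 4 experiments, and dotted lines mark a 1.5-fold change. All 9 intervals include 0 and stay inside the dotted lines.

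The pairs did not move as a block. With SCF, 6 of 9 members were higher in BC, 7 in I, 5 in E and 2 in D2, while 47.9% of all probe sets tested were higher in BC, 51.7% in I, 50.2% in E and 51.3% in D2. In D2 only Zbtb46 and Nfil3 were higher with SCF, and the median difference of the members was −0.10. In BC the median difference of the members was 0.11, with Batf3 at 0.25 and Zbtb46 at 0.24. All 4 tested monocyte markers were lower with SCF in that experiment, with a median of −0.44, as were 8 of 9 macrophage markers, with a median of −0.26. In D2 the medians were 0.08 for monocyte and 0.09 for macrophage markers, in E they were −0.16 for monocyte and −0.0056 for macrophage markers, and in I they were 0.05 for monocyte and −0.07 for macrophage markers. The median of the members was 0.06 in E and 0.05 in I. In I the medians of the members and of the monocyte markers both lay above 0. There, 2 of 9 members and 2 of 4 monocyte markers were lower with SCF. Ly6c2, a monocyte surface protein gene, differed by −0.44 in BC and 0.14 in D2, and Mertk, a phagocytic receptor gene of macrophages, by −0.46 in BC and −0.09 in D2. Mertk was not typical of its list in D2, where only 2 of 9 macrophage markers and 1 of 4 monocyte markers were lower with SCF. The part of these cells in the members' values was not tested.

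Differences between experiments were the second question, since each experiment was a culture of its own. The F test of limma over the 4 experiments, with treatment in the fit, called 0 of 9 members at an adjusted p of 0.05, beside 3.35% of all probe sets. At an unadjusted p under 0.05 there were 3 members, Nfil3, Zbtb46 and Batf3, beside 24.2% of all. Nfil3 averaged 8.06 in I, 7.90 in BC, 7.81 in E and 7.71 in D2 (mean of the SCF and medium arrays, adjusted p = 0.1001). Zbtb46 followed with 6.77 in I, 6.60 in BC, 6.39 in D2 and 6.39 in E (adjusted p = 0.117), with D2 and E level. Batf3 was set apart by BC, at 7.26, with 7.00 in I, 6.88 in E and 6.87 in D2 (adjusted p = 0.139). The adjusted p of the other 6 members lay between 0.287 for Cd24a and 0.590 for Xcr1. These calls depended on the fit: with a stricter intensity filter the adjusted p was 0.0246 for Nfil3, 0.0314 for Zbtb46 and 0.0408 for Batf3, which made 3 of 7 members called beside 22% of 6334 probe sets. With a variance trend it was 0.0276 for Nfil3, 0.0561 for Zbtb46 and 0.0597 for Batf3, or 1 of 9 members beside 12.1% of all. Without BC that of Batf3 was 0.624, and without I those of Nfil3 and Zbtb46 were 0.370 and 0.383. Culture, animals and any array batch cannot be told apart within an experiment.

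**Figure D3:**
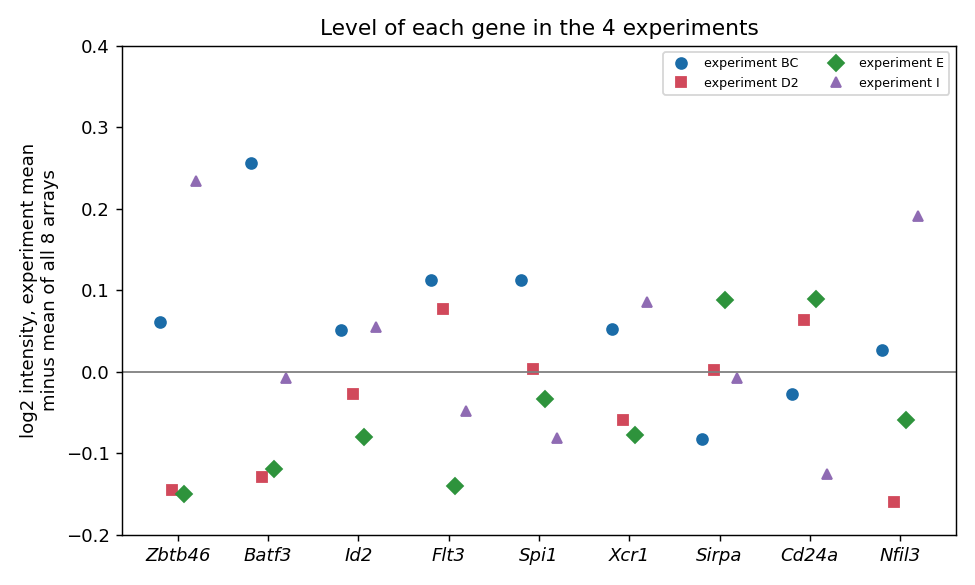
Mean log2 intensity of the SCF and medium arrays of each experiment minus the mean of all 8 arrays (y axis) for each gene (x axis), 1 mark per experiment. Experiment I stands highest for Zbtb46 and Nfil3 and lowest for Cd24a, and BC stands highest for Batf3.

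Among the members, Zbtb46 and Nfil3 had the most similar levels over the 8 arrays (Pearson's r = 0.882), followed by Batf3 and Id2 (r = 0.797). Cd24a ran opposite to Zbtb46 (r = −0.865) and to Nfil3 (r = −0.800), and Sirpa opposite to Batf3 (r = −0.761). These are descriptions over 8 arrays that form 4 pairs of shared cultures, so they hold fewer than 8 independent points. The genes most like each of the 3 members with the widest range were found among 11351 genes. For Zbtb46 they were Nol4l (r = 0.985), the unconventional myosin gene Myo10 (r = 0.967) and Gins3 (r = 0.965), a subunit of the replicative helicase complex. For Batf3 they were Dnajc30 (r = 0.977), the Ikaros family gene Ikzf4 (r = 0.976) and Ankrd10 (r = 0.975). For Nfil3 they were Ankrd13a (r = 0.988), the Rac exchange factor gene Prex1 (r = 0.981) and Ttyh3 (r = 0.970).

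**Figure D4:**
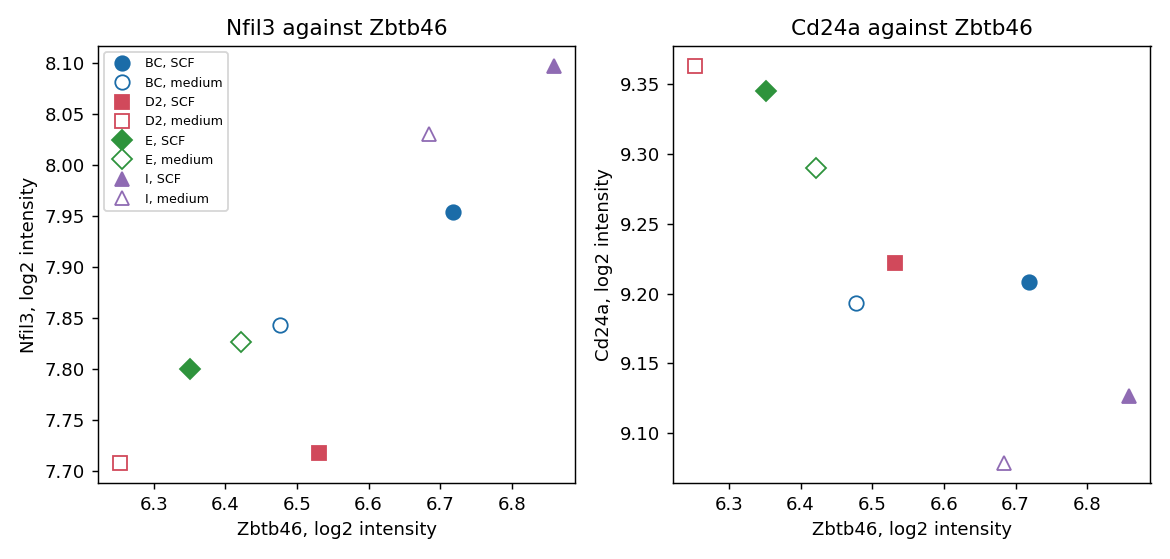
Log2 intensity of Nfil3 (left) and Cd24a (right) against that of Zbtb46 on the 8 arrays; filled marks are SCF, open marks medium, and shape and colour give the experiment. Nfil3 is higher and Cd24a lower on arrays with more Zbtb46, and both arrays of experiment I lie at that end.

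Genes of the dendritic cell programme were counted in lists chosen with earlier results of these data known. The lists include the members: Zbtb46 and Flt3 in the core list, Xcr1, Batf3, Id2 and Cd24a in the type 1 list, and Sirpa in the type 2 list. The regulator list holds Spi1, Id2, Nfil3, Batf3 and Zbtb46. Counts and medians of these lists are therefore not independent of the members' values. Of the 24 genes of a core conventional dendritic cell list, 21 were tested and 0 passed in either direction. Of these 21, 13 lay above and 8 below 0, where 50.5% of all probe sets tested lay above 0. The median log2 fold change was 0.04, beside 0.00077 over all probe sets tested. Ap1s3 was the only core gene at an unadjusted p under 0.05, which 4.21% of all probe sets had. Tlr3 and Cd36 were those of the type 1 list, and Relb that of the type 2 and regulator lists described next. The clathrin adaptor gene Ap1s3 was at −0.12 (SE 0.05), Traf1, an adaptor of TNF receptor signalling, at 0.12 (SE 0.06), and the metalloproteinase gene Adam19 at 0.10 (SE 0.05). Of 14 type 1 genes, 10 were tested and 0 passed, 5 on each side of 0, with a median of −0.00041. Tlr3, the sensor of double-stranded RNA, was at −0.20 (SE 0.07), with −0.44 in BC, and the scavenger receptor gene Cd36 at −0.14 (SE 0.05). Naaa, a lysosomal amidase gene, was at −0.09 (SE 0.05), and Irf8, the interferon regulatory factor of the type 1 lineage, at 0.07 (SE 0.05) with all 4 experiments between 0.06 and 0.09. The type 1 markers Cadm1, Cd8a and Gcsam lay below the filter.

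Of 14 type 2 genes, 12 were tested and 0 passed, 7 above and 5 below 0, with a median of 0.0085. Relb, the NF-kB subunit gene, was at 0.13 (SE 0.05) and the receptor gene Notch2 at 0.12 (SE 0.05), both above 0 in all 4 experiments. The same sign in all 4 was seen in 12.9% of all probe sets. Klf4, a zinc finger factor of the type 2 lineage, was at −0.09 (SE 0.05). The integrin gene Itgam was at −0.11 (SE 0.07), of which −0.33 fell in BC. Of 33 transcriptional regulators of dendritic cells, 29 were tested and 0 passed, with a median of 0.02. Of these 29, 21 lay above and 8 below 0, where 50.5% of all probe sets tested lay above 0. With the array medians equalized every value shifts down alike, and 39.5% of all lay above 0. Counts of this list and of the core list were not repeated under that scaling. Cebpb, a basic leucine zipper factor of monocytes and macrophages, was at −0.14 (SE 0.07), with −0.40 in BC.

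The partners of the surface members were also near their medium level. Cd47, the ligand of the Sirpa protein, averaged 9.70 ± 0.07 with SCF and 9.69 ± 0.07 in medium (log2 intensity, SD, n = 4 each). Siglecg, whose protein binds CD24, averaged 6.24 ± 0.24 with SCF and 6.21 ± 0.14 in medium. Xcl1, the chemokine ligand of Xcr1, lay below the filter at 3.86 with SCF and 3.83 in medium, and so did Selp. Flt3l was not analysed here.

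Markers of other cells were listed by how many passed the filter, which 11351 of all 22180 genes passed. Passing therefore does not show that a cell type was present. Of plasmacytoid dendritic cell markers 5 of 8 passed, led by the E protein gene Tcf4 (7.19 with SCF and 7.20 in medium), while the defining marker Siglech did not. Neutrophil markers passed in 2 of 9, led by Cxcr2 (4.51 with SCF and 4.64 in medium), and mast cell and basophil markers in 2 of 10, led by Gata2 (5.06 with SCF and 5.19 in medium). Of 5 B cell markers, 4 were on the arrays and 1 passed (Pax5, 4.35 with SCF and 4.34 in medium). T and NK cell markers passed in 1 of 6 (Nkg7, 4.61 with SCF and 4.60 in medium) and eosinophil markers in 1 of 4 (Siglecf, 4.75 with SCF and 4.77 in medium). Of 4 genes listed as progenitor markers 3 passed, led by Cd48 (8.58 with SCF and 8.54 in medium), which is not particular to progenitors. Cd34 lay beside the filter of 4.05, at 3.99 with SCF and 4.13 in medium, and Mycn lay below it. Of 4 erythroid markers, only 2 were on the arrays and 0 passed, with Klf1 at 3.81 with SCF and 3.86 in medium. Of the macrophage markers tested, 8 of 9 lay below 0 with a median log2 fold change of −0.05, and of the monocyte markers 4 of 4 with a median of −0.13, and 0 passed. Mertk, at −0.20 (SE 0.07) and lower with SCF in all 4 experiments, was the only one of these at an unadjusted p under 0.05. Over all probe sets tested, 50.5% lay above 0, 4.21% had an unadjusted p under 0.05 and 12.9% had the same sign in all 4 experiments. The counts of the macrophage and monocyte lists do not show a fall shared by every experiment. Experiment BC had the lowest medians, −0.26 for macrophage and −0.44 for monocyte markers. For D2 both medians were positive, 0.09 and 0.08. Experiment E had −0.0056 for macrophage and −0.16 for monocyte markers, and experiment I had −0.07 and 0.05. Neither list was counted again without BC. The brightest macrophage and monocyte markers were Cd68 (9.66 with SCF and 9.67 in medium) and F13a1 (6.96 with SCF and 7.10 in medium).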

How the data were processed

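Total RNA was labelled with biotin and read on 8 Affymetrix arrays, 1 for each condition of each experiment. Each deposited value is an intensity per probe set on a linear scale, made by the authors with RMA per the submitters' processing notes. Version, software and any filters were not given in the sources used here. Log2 was taken with no pseudocount and no further normalization. The table gives no detection call, so signal over background is unknown, and the number of arrays limits the precision. Of 41345 probe sets, 23521 carried 1 symbol in the platform annotation, 1814 carried several, and 16010 had no name here. RefSeq (GRCm38.p6) held the Entrez number of 23328, with 0 differing symbols. Probe sets with a symbol were tested where their mean log2 value reached 4.05, the median of such means, which left 12668 (11351 genes).

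Groups and experiments came from the sample titles. Each experiment's cells were split between SCF and medium per the design text, so experiment was a fixed block in lmFit and eBayes (limma 3.58.1, R 4.3.3), two-sided, with Benjamini-Hochberg adjustment over all probe sets tested. The F test of experiment came from the same fit. After removal of group means, arrays of an experiment correlated at 0.36 to 0.46. Log2 values of any pair of arrays correlated between 0.990 and 0.995, and no arrays were identical. The fit was tested on simulated data. Alternatives were the intensity filter, scaling, variance model, probe set choice, block and each experiment left out.

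The members, the lists and the tests were chosen with earlier results of these data known. Named genes were all members, for the 3 members of widest range the 3 most correlated genes, from each dendritic cell list up to 4 with the smallest unadjusted p, and from each other list its brightest member. Some further genes, Ly6c2, Mertk and Siglech among them, were named outside this rule.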

Additional observations from a re-analysis of the deposited data

How the results depend on the processing

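In the fit without the replicate block, as with experiment as a random block, 0 probe sets and 0 members were called for SCF against medium, and this count was 0 in all 13 alternatives, the plain paired statistic and the runs without 1 experiment included. At an unadjusted p under 0.05, 1 member (Zbtb46) passed with a stricter intensity filter, beside 7.12% of its probe sets, with a variance trend, beside 5.15%, and without E, beside 4.38%. Of 115 member values under alternatives, 10 had the opposite sign of the reported one, in 5 members. Many of the 115 could not turn. Changing the intensity filter, variance model or block, or using the plain paired statistic, leaves the log2 fold change itself as it was. The mean of probe sets can alter Cd24a alone. Id2 turned to −0.00054 and Xcr1 to −0.022 after a repeated quantile normalization, Xcr1 to −0.014 with the array medians equalized, a common shift of all probe sets, and Cd24a to 0.063 as the mean of its probe sets. Leaving out 1 experiment gave log2 fold changes from −0.0080 to 0.063 for Id2, −0.031 to 0.13 for Flt3, −0.0098 to 0.050 for Spi1, −0.086 to 0.051 for Xcr1 and −0.026 to 0.039 for Cd24a. Zbtb46, Batf3, Sirpa and Nfil3 kept their sign throughout. Equalizing the medians moved the median log2 fold change of all probe sets tested from 0.00077 to −0.02. The number of probe sets that differed between experiments was 194 with no intensity filter, 1396 with the stricter one, 1527 with the variance trend and 38 to 177 without 1 experiment, beside 424 as reported. It took in 3 of 7 members under the stricter filter, which left out Flt3 and Xcr1, beside 22% of 6334 probe sets, and 1 of 9 with the trend beside 12.1%. Fewer arrays enter when an experiment is left out; for the other settings the cause was not tested. With 4 arrays a group and no background level, small changes of dim genes such as Xcr1 are not resolved.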
